A study of Rattus norvegicus with 170 samples.

Results

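The 10 genes described here encode the machinery that carries a cell through the G1 phase: the D cyclins (*Ccnd1*, *Ccnd2*, *Ccnd3*), their kinases (*Cdk4*, *Cdk6*), the E cyclins (*Ccne1*, *Ccne2*) and their kinase (*Cdk2*), the phosphatase *Cdc25a* and the retinoblastoma gene *Rb1*. They were picked by symbol, and all 10 were found among the 24113 genes of the expression table, each as a single transcript. The cells came from whole islets of 8-week-old Sprague Dawley rats, cultured for 48 h at 5.5 mM glucose with 0.1% DMSO as vehicle (86 cells) or with 3 µM GNF4877, a compound that the study presents as a stimulus of β-cell proliferation (84 cells). Islets were dispersed, captured on Fluidigm C1 chips and sequenced as 50 bp reads. Each treatment was 1 sample on its own chip, so cells are not replicates and no test was run. The treatments cannot be told apart from their chips and lanes.

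In G1, D cyclins bind CDK4 or CDK6 and phosphorylate RB, which otherwise holds E2F transcription factors silent on the genes of DNA synthesis. Cyclin E with CDK2 continues this phosphorylation at the entry to S phase, and CDC25A removes the inhibitory phosphates from CDK2. In rodent β-cells cyclin D2 and CDK4 are known to be needed for postnatal growth of the cell mass, and much of the control of cyclin D lies in its phosphorylation and degradation, which RNA does not show.

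Levels are in RPM, which relates the reads of a gene to the depth of the cell and takes no account of transcript length, so they are compared between cells and not between genes. Cells with *Ins1* of 1000 RPM or more are called Ins1-high: 78 in DMSO and 59 in GNF4877. Of the latter, 40 had *Ccnb1*, a cyclin of G2 and mitosis, at 0, 8 had it above 0 and below 10 RPM, and 11 had it at 10 RPM or more. α-cells, with *Gcg* of 1000 RPM or more and *Ins1* below that, numbered 5 and 18. Median depth was 1235723 mapped reads in Ins1-high DMSO cells and 1424573 in Ins1-high GNF4877 cells. At 100000 reads a cell the median number of genes read was 6621 and 4918.5.

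The labels of the groups were set against markers of the cell types. Of 9 β-cell markers in the table, 8 averaged 10 RPM or more in Ins1-high DMSO cells and 7 in Ins1-high GNF4877 cells, where *Nkx6-1* averaged 4.42 RPM after 11.5 in DMSO. *Mafa* was near 0 in both, at 0.129 and 0 RPM. Of 10 α-cell markers, 9 averaged 10 RPM or more in DMSO α-cells and 7 in GNF4877 α-cells. The 5 duct markers summed to a median of 289 RPM in DMSO and 770 RPM in GNF4877, led in the latter by *Krt8* with a mean of 638 RPM. *Krt18* and *Krt19* were higher there too, while *Sox9* (1.35 and 0.0775 RPM) and *Cftr* (6.70 and 4.02 RPM) were lower. A second hormone gene (*Gcg*, *Sst* or *Ppy*) reached 1000 RPM in 25 of the Ins1-high DMSO cells and 4 of the Ins1-high GNF4877 cells. The 7 mesenchymal markers summed to a median of 1.03 RPM in Ins1-high DMSO cells and 0.734 RPM in Ins1-high GNF4877 cells. Their mean sums were 331 and 2.84 RPM, with 6 and 0 of the 7 at a mean of 10 RPM or more, led by *Col1a1* in DMSO and *Vim* in GNF4877. The DMSO mean includes DMSO_46, a cell with a sum of 14035 RPM. In α-cells the mesenchymal markers had mean sums of 53.5 RPM in DMSO and 738 RPM in GNF4877, but median sums of 5.92 and 1.84 RPM. The highest sums there were 243 RPM in DMSO_33 and 11356 RPM in GNF4877_42. The 5 immune markers had median sums of 9.90 and 8.56 RPM in Ins1-high cells, where *Cd74* averaged 9.99 and 58.3 RPM and *Cd68* 0.175 and 6.86 RPM. The others were lower in GNF4877: *Cd14* (10.1 and 6.19 RPM), *Ptprc* (0.348 and 0.183 RPM) and *Lyz2* (0.531 and 0 RPM). The 10 α-cell markers had median sums of 2388 and 2564 RPM in Ins1-high cells. Their mean sums were 46995 and 4464 RPM, of which *Gcg* averaged 44059 and 720 RPM. Of the 8 acinar and 5 endothelial markers, 0 averaged 10 RPM in Ins1-high cells of either treatment. The part of these differences in the results below was not tested.

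Between treatments, *Cdk2* rose and *Ccnd2* and *Rb1* fell in Ins1-high cells. *Ccnd1* was below 10 RPM in more of the GNF4877 cells than of the DMSO cells. *Cdk4*, by contrast, was read in nearly all cells of both treatments. A gene is said to rise or fall where log2 of the ratio of mean RPM, with 1 RPM added to each mean, was 1 or more in size. By that rule 1 of the 10 members was higher in GNF4877, beside 10.1% of the 13368 genes that averaged 1 RPM or more, and 2 were lower, beside 17.2%. Both counts are near the shares of all genes, so they show nothing particular to these genes.

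*Ccnd2*, the main D cyclin of rodent β-cells, ranged from 0 to 1262 RPM with a median of 287 in the 78 DMSO cells. In the 59 GNF4877 cells it ranged from 0 to 620.4 RPM with a median of 83.3. The groups overlapped, but 68 of the DMSO cells and 26 of the GNF4877 cells held 100 RPM or more. The mean fell from 348 RPM (SD 242 over cells) to 147 RPM (SD 177), a log2 ratio of -1.24. After each cell was thinned to 100000 reads, *Ccnd2* was read in 100% of 76 DMSO cells (95.3% to 100%, an exact 95% interval after Clopper and Pearson) and in 77.6% of 58 GNF4877 cells (64.7% to 87.5%). These intervals do not overlap. They cover counting error over cells only, so intervals apart describe these cells and are no test between treatments.

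*Ccnd1*, a D cyclin induced by growth signals, ranged from 1.40 to 646 RPM in DMSO, with a median of 156. In GNF4877 it ranged from 0.598 to 1118 RPM, with a median of 16.6. It was read in every Ins1-high cell of both treatments, yet it stayed below 10 RPM in 7 DMSO cells and in 24 GNF4877 cells. Of the GNF4877 cells 19 held 100 RPM or more and kept the mean up: 112 RPM against 158 RPM gave a log2 ratio of only -0.49, while the difference of mean log2(RPM + 1), which weights cells equally, was -1.91 and past the threshold. On that scale the median of all genes was -0.49, against -0.09 for the ratio of means.

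*Ccnd3*, the third D cyclin, had a median of 0.686 RPM and a maximum of 200.1 RPM in DMSO. In GNF4877 the median was 0 and the maximum 202 RPM. It was read in 40 of the 78 and 19 of the 59 cells. Its log2 ratio of means was 0.58, and the difference of mean log2 had the other sign, at -0.32.

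*Cdk4* was read in 76 of the DMSO cells and 58 of the GNF4877 cells, between 0 and 1026 RPM in the former and 0 and 870.4 RPM in the latter. Its median was 151 RPM in DMSO and 248 RPM in GNF4877, and 64.1% and 78% of cells held 100 RPM or more. The log2 ratio, 0.48, did not pass the threshold. *Cdk6*, the other partner of the D cyclins, was a low-level transcript, with at most 14.6 RPM in DMSO and 18.1 RPM in GNF4877. It was read in 97.4% and 91.5% of cells, but reached 10 RPM in only 4 of 78 and 2 of 59, and its log2 ratio was -0.43.

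The E cyclins were sparse. *Ccne1* was read in 5 cells of each treatment, with up to 112 RPM in DMSO and 35.3 RPM in GNF4877. Its log2 ratio of -0.85 was -1.46 without the cell GNF4877_17, which held 82.3% of the GNF4877 sum, but 0.04 without DMSO_11, which held 68.1% of the DMSO sum. As a difference of mean log2 it was -0.09. *Ccne2* was read in 65.4% of DMSO cells (median 6.17, maximum 145 RPM) and 52.5% of GNF4877 cells (median 2.06, maximum 348 RPM). The log2 ratio of *Ccne2* was 0.59, with 1.02 without the cells with a second hormone, 0.18 without GNF4877_19 and -0.16 as a difference of mean log2.

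*Cdk2*, the kinase of both E cyclins, had a median of 0.757 RPM in DMSO, from 0 to 422. In GNF4877 the median was 6.85 RPM, from 0 to 674. Of the GNF4877 cells 28 held 10 RPM or more, 22 of these 100 RPM or more, and 29 of the other 31 still had a read. In DMSO, 18 of 78 cells held 10 RPM or more, and 25 of the other 60 had a read. The mean rose from 25.5 RPM (SD 65.3) to 125 RPM (SD 187), a log2 ratio of 2.25. At 100000 reads the share of cells with a read was 30.3% (20.2% to 41.9%) and 53.4% (39.9% to 66.7%), with intervals that overlap. With all reads they were apart, at 55.1% (43.4% to 66.4%) and 96.6% (88.3% to 99.6%), and at 10 RPM or more as well.

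*Cdc25a*, which encodes an activator of CDK2, was read in 39 DMSO cells and 18 GNF4877 cells. Its maximum was 217 and 278 RPM, its median 0.233 and 0, and its log2 ratio -0.12. *Rb1* ranged from 0 to 674 RPM in DMSO with a median of 9.79. In GNF4877 it ranged from 0 to 346 RPM with a median of 0. It reached 10 RPM in 39 of the 78 and 12 of the 59 cells, and its mean fell from 55 RPM (SD 106) to 17.6 RPM (SD 52.7), a log2 ratio of -1.59. At 100000 reads it was read in 59.2% (47.3% to 70.4%) and 24.1% (13.9% to 37.2%) of cells. By such intervals 2 members, *Ccnd2* and *Rb1*, were apart and lower in GNF4877, beside 15.1% of 16665 genes, and 0 were apart and higher, beside 0.528%.

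The genes around the G1 machinery were counted from lists. Of the CDK inhibitors, which bind cyclin D or E kinases and hold them inactive, 3 of 5 with enough reads fell and 0 rose. *Cdkn1b*, the gene of p27, fell from 21.6 to 6.29 RPM (log2 ratio -1.64) and *Cdkn2b*, that of p15, from 15 to 5.06 RPM (-1.40). *Cdkn2d*, that of p19, averaged 12.8 and 20.9 RPM (0.66, but -0.31 as a difference of mean log2). Of the other pocket proteins and E2F genes, 4 of 8 rose and 2 fell: the repressor E2F gene *E2f6* fell from 41.6 to 20.2 RPM (-1.0) and the RB relative *Rbl2* from 32.7 to 15.1 RPM (-1.07). *E2f4* averaged 36 and 34.9 RPM, but its difference of mean log2 was -1.35 and past the threshold. Among kinases and phosphatases that act on CDKs, 2 of 7 rose and 1 fell. *Cdk7*, the CDK-activating kinase, rose from 20.7 to 49.9 RPM (1.23) and *Wee1*, an inhibitory kinase, fell from 50.0 to 6.52 RPM (-2.76). *Ccnh*, the cyclin of CDK7, averaged 80.7 and 92.2 RPM, but its difference of mean log2 had the other sign, at -0.88. After thinning, *Ccnh* was read in 85.5% of DMSO cells and 62.1% of GNF4877 cells, with intervals apart. As differences of mean log2, 0 genes of these lists rose, while 1 of the inhibitors, 3 of the pocket protein and E2F genes and 1 of the kinases and phosphatases fell. On that scale 1.8% of all genes rose and 24.6% fell, beside 10.1% and 17.2% by the ratio of means.

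The E2F target genes of S phase had a median log2 ratio of 1.61, beside -0.09 for all genes. Of the 18 targets 16 rose and 0 fell, beside 10.1% and 17.2% of all genes. That count changes where cells weigh equally: 6 of the 18 then rose and 0 fell, with a median difference of mean log2 of 0.49 beside -0.49 for all genes. By the intervals 4 of the targets were higher, beside 0.528% of all genes, and 0 lower, beside 15.1%. *Pcna*, the sliding clamp of DNA polymerase, rose from 121 to 262 RPM, and *Rrm1*, of ribonucleotide reductase, from 49.9 to 158 RPM, though as differences of mean log2 these were 0.45 and 0.03. *Gins2*, of the replicative helicase, averaged 175 and 129 RPM. Of the genes of cyclin turnover, 1 of 8 rose and 1 fell, or 0 and 1 as differences of mean log2. *Gsk3b*, whose kinase marks cyclin D1 for degradation, averaged 135 and 205 RPM, the CKS protein gene *Cks1b* 19.3 and 33.1 RPM, and the F-box gene *Fbxo4* 12.5 and 7.63 RPM. As differences of mean log2 these were -0.71, -0.11 and -0.63, so *Gsk3b* and *Cks1b* had the other sign on that scale. Upstream of the D cyclins 0 of 6 rose and 2 fell (3 on the other scale), with *Ctnnb1*, the gene of β-catenin, at 120.1 and 106 RPM. *Men1*, the gene of menin, averaged 24.3 and 25.7 RPM, and *Nfatc3* 24.5 and 22 RPM.

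**Figure D1:**
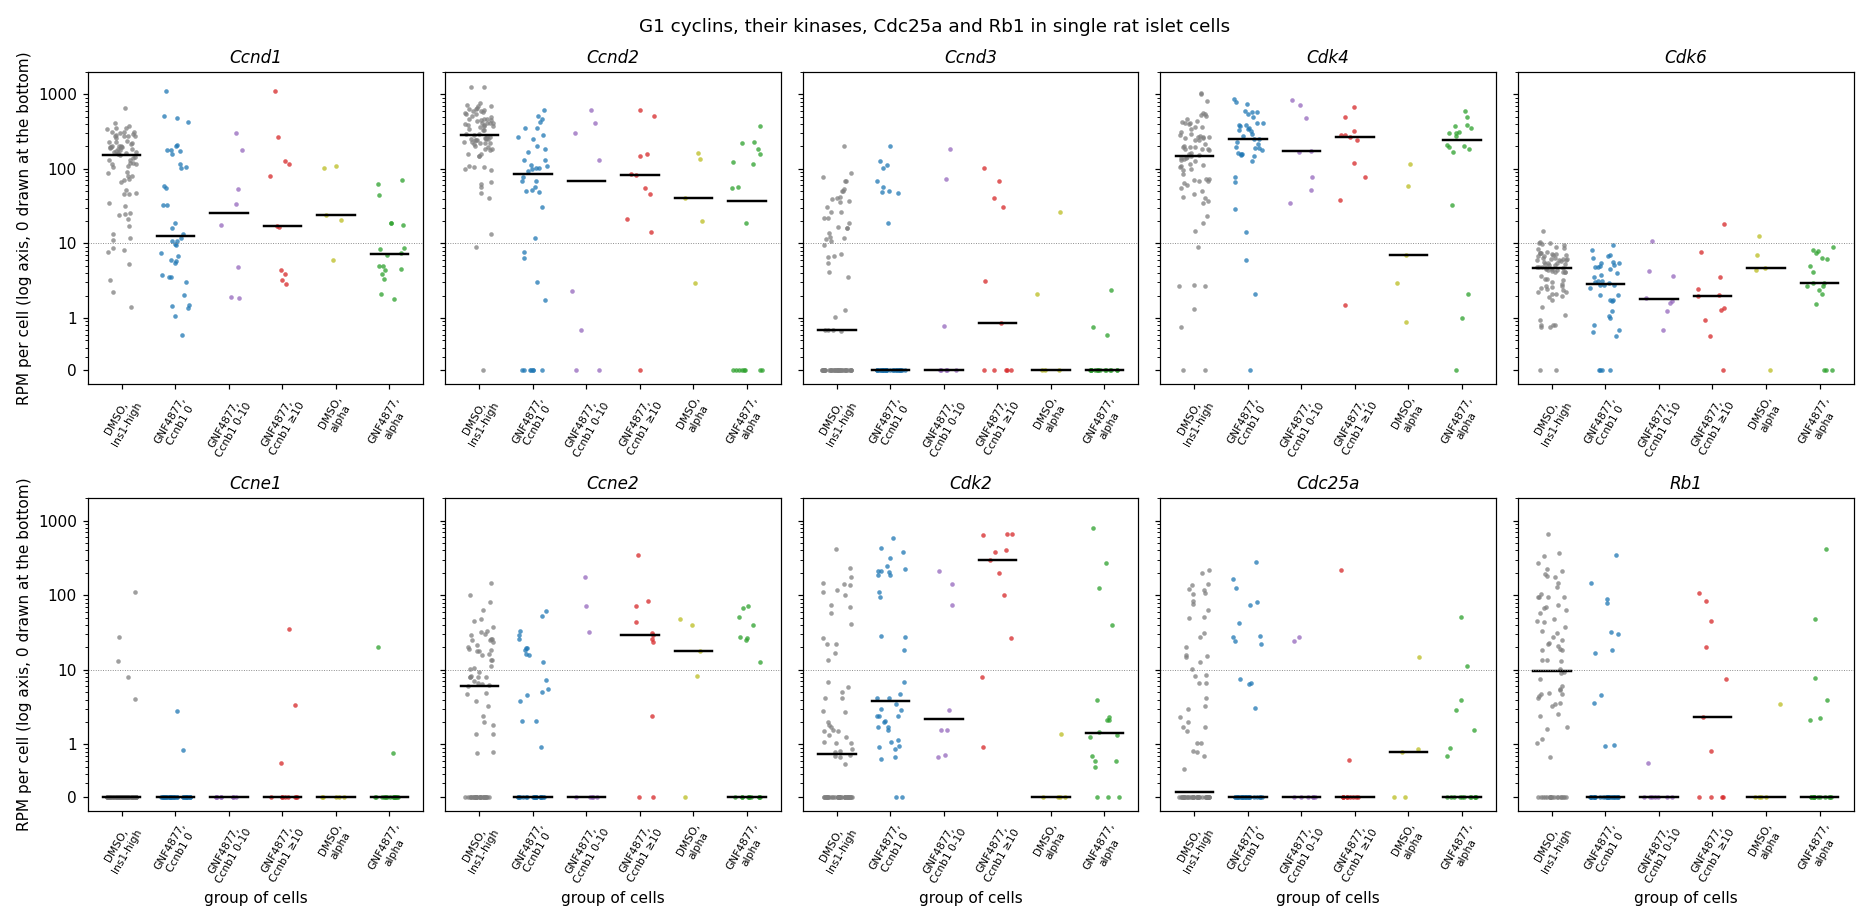
RPM of each of the 10 genes in single cells. Each dot is a cell and each bar the median of its group. The axis is logarithmic and 0 is drawn at the bottom. The dotted line marks 10 RPM. Groups are all Ins1-high DMSO cells, Ins1-high GNF4877 cells by *Ccnb1* (0, above 0 and below 10, 10 RPM or more) and α-cells of each treatment.

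Within the GNF4877 chip, Ins1-high cells with *Ccnb1* were set against those without it, which asks how the G1 machinery looked in cells with a transcript of G2 and mitosis. Marker sums differed too, with medians without and with *Ccnb1* of 29771 and 54472 RPM for β-cell markers. They were 2275 and 5043 RPM for α-cell markers, and 819 and 430 RPM for duct markers. GNF4877_31, a cell with *Ccnb1*, held 37011 RPM of *Gcg*. The part of these differences in the ratios was not tested. *Cdk2*, *Ccne2* and *Ccne1* rose, and the D cyclins, *Cdk4* and *Cdk6* did not pass the threshold in either direction. Thus 3 of 10 members were higher, beside 18.2% of 12489 genes, and 0 were lower, beside 23.9%. Only 2 of the 3 were higher without GNF4877_17, on which the rise of *Ccne1* rests. *Ccne1* averaged 3.57 RPM with *Ccnb1* and 0.0915 RPM without, so it passed the minimum mean of 1 RPM only through the group where it was high. Its place in the count carries no weight. By the intervals at 100000 reads 0 were higher, beside 0.988% of 14378 genes, and 0 lower, beside 0.0487%.

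*Cdk2* ranged from 0 to 579 RPM with a median of 3.82 in the 40 cells without *Ccnb1*. In the 11 cells with 10 RPM or more it ranged from 0.921 to 674 RPM with a median of 302. It reached 10 RPM in 16 of the 40 and 9 of the 11 cells, so a high *Cdk2* level was also found in cells without *Ccnb1*. The mean rose from 87.9 RPM (SD 143) to 311 RPM (SD 267), a log2 ratio of 1.81. In the 8 cells between, with *Ccnb1* above 0 and below 10 RPM, *Cdk2* ran from 0.689 to 215 RPM with a median of 2.23. *Ccne2* had a median of 0 and a maximum of 62.3 RPM in the 40 cells, and a median of 29.1 and a maximum of 348 RPM in the 11. It reached 10 RPM in 11 of 40 and 8 of 11 cells. Its mean rose from 8.45 to 60.0 RPM, a log2 ratio of 2.69, or 1.77 without GNF4877_19. *Ccne1* was read in 2 of the 40 cells, with at most 2.82 RPM, and in 3 of the 11, with at most 35.3 RPM. Its rise, a log2 ratio of 2.06, rests on GNF4877_17 and was 0.35 without that cell. It was also below the threshold with a pseudocount of 10 RPM (0.43) and as a difference of mean log2 (0.65).

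The D cyclins were present in cells of both kinds. *Ccnd2* had a median of 85.8 RPM without *Ccnb1* and 83.3 RPM with it, at a log2 ratio of 0.20, or -0.28 without GNF4877_78. *Ccnd1* had medians of 12.6 and 17.1 RPM. Its log2 ratio, 0.54, was 0.93 without GNF4877_45 and -0.75 without GNF4877_19, which held 1093 RPM of *Ccnd1*, and the highest *Ccne2* and *Cdc25a* of the 11 cells. *Ccnd3* was at 10 RPM or more in 10 of 40 and 4 of 11 cells (log2 ratio 0.10, with -0.52 without GNF4877_25 and 0.44 without GNF4877_41). *Cdk4* had medians of 251 and 272 RPM (-0.21) and *Cdk6* of 2.90 and 1.97 RPM (0.14, with 1.15 at 100000 reads and -0.41 without GNF4877_78).

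*Cdc25a* was read in 14 of the 40 and only 2 of the 11 cells. GNF4877_19 held 99.7% of its sum in the 11, so that the log2 ratio was -0.16 with that cell and -4.46 without it. It was 0.31 without GNF4877_47. *Rb1* was read in 12 of the 40 and 7 of the 11 cells, with means of 19.3 and 24.1 RPM. For *Rb1* the log2 ratio was 0.31, and 1.08 without GNF4877_90, a cell without *Ccnb1* that held 346 RPM, but -0.26 without GNF4877_31. As a difference of mean log2 it was 1.27 and past the threshold. At 100000 reads it was read in 20.5% (9.30% to 36.5%) of cells without *Ccnb1* and 54.5% (23.4% to 83.3%) of those with it, with intervals that overlap. The comparison rests on 11 cells.

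Around these genes, 3 of 4 CDK inhibitors rose in the *Ccnb1* cells and 0 fell, on either scale. Of all genes 18.2% rose and 23.9% fell by the ratio of means, and 14.9% and 6.43% as differences of mean log2. How many genes of these lists passed the minimum mean only through the *Ccnb1* cells was not counted. *Cdkn2d* rose from 9.39 to 69.4 RPM (log2 ratio 2.76), *Cdkn2c*, the gene of p18, from 1.46 to 10.4 RPM (2.22) and *Cdkn1b* from 4.99 to 12.2 RPM (1.14). Of the pocket protein and E2F genes 6 of 9 rose and 1 fell: *Rbl2* went from 6.91 to 41 RPM (2.41) and *E2f4* from 43.7 to 9.58 RPM (-2.08), with *E2f6* at 17.7 and 28.4 RPM. As differences of mean log2 6 rose and 0 fell, with *E2f4* at -0.24. Of the genes acting on CDKs 3 of 7 rose and 0 fell, or 5 and 0 on that scale. The 3 were the phosphatase genes *Cdc25b*, from 6.10 to 67.2 RPM (3.26), and *Cdc25c*, from 10.2 to 36.1 RPM (1.72), and *Wee1*, from 4 to 20.3 RPM (2.09, but 0.76 on that scale). *Cdc25b* and *Cdc25c*, which act on mitotic CDK1, thus rose where *Cdc25a* did not.

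Of the S-phase targets of E2F, 16 of 18 rose in the *Ccnb1* cells and 1 fell, beside 18.2% and 23.9% of all genes. *Pcna* rose from 139 to 725 RPM and *Rrm1* from 47.4 to 516 RPM, with *Gins2* at 110.1 and 206 RPM. As differences of mean log2 16 of the targets rose and 0 fell, beside 14.9% and 6.43% of all genes. Cyclin turnover genes went both ways, with 2 of 7 higher and 4 lower, or 1 higher and 0 lower as differences of mean log2. *Cks1b*, a partner of the ubiquitin ligase that degrades p27, rose from 22.9 to 76.9 RPM (1.71), and *Gsk3b* fell from 226 to 96.3 RPM (-1.22) and *Fbxo4* from 9.13 to 0.909 RPM (-2.41). Upstream of the D cyclins 2 of 6 rose and 4 fell, *Men1* from 21.4 to 56.4 RPM (1.36), *Ctnnb1* from 113 to 15.9 RPM (-2.75) and *Nfatc3* from 26.4 to 2.67 RPM (-2.90). On the other scale 1 of these rose and 1 fell.

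**Figure D2:**
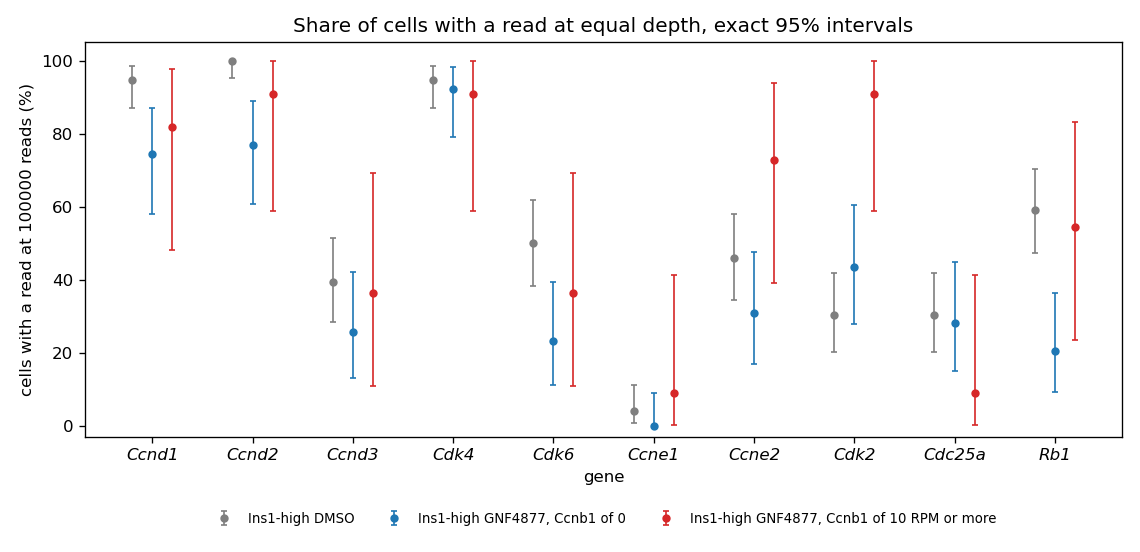
Share of cells with a read of each gene after every cell was thinned to 100000 reads. Dots are shares and bars exact Clopper-Pearson 95% intervals, which cover counting error only. Groups are Ins1-high DMSO cells (76), Ins1-high GNF4877 cells with *Ccnb1* of 0 (39) and of 10 RPM or more (11).

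Ins1-high cells without *Ccnb1* were then compared between treatments, which asks whether the differences needed cells with that cyclin. They share their cells with both comparisons above. *Cdk2* was higher here too, and *Ccnd2*, *Rb1* and *Ccne1* were lower. This made 1 of 10 members higher, beside 9.45% of 13117 genes, and 3 lower, beside 20.1%. By the intervals 0 were higher, beside 0.209% of 16289 genes, and 3 lower (*Ccnd1*, *Ccnd2* and *Rb1*), beside 12.1%. Counts this small show nothing particular to these genes.

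*Cdk2* had a median of 0.713 RPM and a maximum of 234 RPM in the 77 DMSO cells, against 3.82 and 579 RPM in the 40 GNF4877 cells. Its mean rose from 20.4 to 87.9 RPM, a log2 ratio of 2.06, and its intervals were apart with all reads but overlapped at 10 RPM or more and at 100000 reads. *Ccnd2* fell from a mean of 351 to 136 RPM (median 292 and 85.8), a log2 ratio of -1.36. *Ccnd1* had medians of 158 and 12.6 RPM and a log2 ratio of -0.57, or -2.03 as a difference of mean log2, on which scale the median of all genes was -0.52. At 100000 reads it was read in 96.0% (88.8% to 99.2%) of 75 DMSO cells and 74.4% (57.9% to 87%) of 39 GNF4877 cells. These intervals overlapped with all reads, with an *Ins1* threshold of 100 or 10000 RPM and without the cells with a second hormone, so that *Ccnd1* was then not among the members lower by them. They stayed apart at 10 RPM or more and without the cells with under 50% of reads on listed transcripts. *Cdk6* had intervals apart and lower without those cells and with an *Ins1* threshold of 10000 RPM.

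*Rb1* fell from a mean of 55.4 to 19.3 RPM, a log2 ratio of -1.48, or -2.25 without GNF4877_90. With *Ins1* of 100 RPM as the minimum it was -0.92 and no longer past the threshold. *Ccne2* averaged 13.9 and 8.45 RPM (-0.65), the opposite sign to that over all Ins1-high cells. *Ccne1* fell from 2.03 to 0.0915 RPM (-1.47), which rests on DMSO_11: without it the log2 ratio was -0.54. That fall was also lost with a pseudocount of 10 RPM (-0.25) and as a difference of mean log2 (-0.16). *Cdk4* (0.53), *Ccnd3* (0.48, but -0.48 as a difference of mean log2), *Cdc25a* (0.15) and *Cdk6* (-0.46) did not pass, though at 100000 reads *Cdk6* did (-1.24).

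The S-phase targets of E2F were higher in fewer cases here, 9 of 17 with 0 lower, beside 9.45% and 20.1% of all genes. As a difference of mean log2 1 of the targets was higher and 1 lower, beside 1.29% and 26.9% of all genes. *Pcna* averaged 116 and 139 RPM. Of the CDK inhibitors 3 of 5 were lower and 0 higher, or 2 lower as differences of mean log2, with *Cdkn1b* from 21.6 to 4.99 RPM and *Cdkn2b* from 15.2 to 3.69 RPM. Pocket protein and E2F genes had 1 of 7 higher and 4 lower, with *Rbl2* down from 32.8 to 6.91 RPM (-2.09) and *E2f6* from 42.2 to 17.7 RPM (-1.20). On the other scale 0 of them were higher and 3 lower. Genes acting on CDKs had 3 of 7 higher and 1 lower, but 0 and 2 on that scale, and cyclin turnover 1 and 1 of 8, but 0 and 2. Genes upstream of the D cyclins had 0 and 3 of 6 on both.

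A lone Ins1-high DMSO cell, DMSO_46, held *Ccnb1* of 10 RPM or more. It had the highest *Cdk2* of all 78 (422 RPM), the third highest *Cdc25a* (141 RPM) and the fifth highest *Cdk4* (553 RPM). Its *Ccnd1*, at 8.81 RPM, and *Ccnd2*, at 95.2 RPM, were among the lowest, 72nd and 70th of the 78. It held 7.93 RPM of *Ccne1* and 23.8 RPM of *Ccne2*. The same cell was also the highest of the 78 for all 7 mesenchymal markers, which summed to 14035 RPM with *Col1a1* at 3470 RPM, and their part in its values was not tested. Without it the log2 ratio of *Cdk2* between treatments over all Ins1-high cells was 2.56.

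Among Ins1-high cells, those of GNF4877 more often held 1 D cyclin alone, and those of DMSO more often all 3. No share of all genes was set beside these counts. Fewer genes in general were read in the GNF4877 cells, a median of 4918.5 against 6621 at 100000 reads, and its part was not tested. With 10 RPM as the threshold, all 3 D cyclins were found in 25 of 78 Ins1-high DMSO cells and 8 of 59 Ins1-high GNF4877 cells. A single D cyclin was found in 5 and 24 cells, and none in 1 and 4. *Cdk4* with *Ccnd1* was found in 65 DMSO cells and 32 GNF4877 cells, and *Cdk4* with *Ccnd2* in 70 and 42. *Cdk2* was found with *Ccne2* in 8 of 78 DMSO cells, 5 of 40 GNF4877 cells without *Ccnb1* and 6 of 11 with it. *Cdk2* without *Ccnd1* was found in 1 DMSO cell, which was DMSO_46, and in 10 GNF4877 cells. Across the 59 GNF4877 cells the largest Spearman correlations between members were -0.36 for *Ccnd2* and *Ccnd3* (-0.10 over the 78 DMSO cells), 0.35 for *Cdk4* and *Rb1* (0.12) and 0.33 for *Ccnd3* and *Ccne2* (0.34). Cells of a group share a chip and differ in depth, so these are descriptions.

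The genes most like a member over the 59 Ins1-high GNF4877 cells were sought among 6232 genes read in 50% or more of them, for members read as often. *Cdk2* was most like *Mcm6*, of the replicative helicase, at a Spearman correlation of 0.55, followed by the centromere gene *Cenpk* (0.47) and *Atp5o* (0.45). Over the 78 DMSO cells these were 0.00, 0.04 and -0.10. The genes were picked as the highest of 6232 in the GNF4877 cells, so lower values in DMSO show no difference between treatments. *Ccne2* was most like *Lsm2* (0.55), *LOC685950* (0.52) and *Stmn1* (0.50), the last at -0.07 in DMSO. *Ccnd1* was most like *LOC679126* (0.62), *Sema4c* (0.62) and *Nlrp1a* (0.57), all at 0.22 or less in DMSO. *Ccnd2* was most like *Pcbp1* (0.46), *Ptges3* (0.45) and *Wdr83* (0.44). *Cdk6*, whose reads are few in every cell, had *Mapk12* (0.74), *Tmem178b* (0.71) and *RGD1310212* (0.70).

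α-cells of the GNF4877 chip were set against Ins1-high cells of that chip, the same 59 cells as above. *Ccnd1*, *Ccnd3* and *Cdc25a* were lower, while *Cdk4* was at a like level in both. Of the 9 members tested 0 were higher, beside 13.7% of 12822 genes, and 3 were lower, beside 33.6%. The lower count is at the share of all genes and shows nothing particular to these genes. By the intervals 0 were higher, beside 0.441% of 15191 genes, and 1 (*Ccnd1*) was lower, beside 2.6%. The median log2 ratio of all genes was -0.42 here, and -0.04 when reads of 5 hormone genes were left out of the scale. Hormone genes took a median of 27.4% of reads in these α-cells and 3.18% in Ins1-high cells.

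*Ccnd1* ranged from 1.79 to 70.6 RPM with a median of 7.21 in the 18 α-cells, against the median of 16.6 RPM in Ins1-high cells, a log2 ratio of means of -2.70, or -1.30 as a difference of mean log2. No α-cell reached the 100 RPM that 19 of 59 Ins1-high cells had. At 100000 reads it was read in 38.9% (17.3% to 64.3%) and 77.6% (64.7% to 87.5%) of cells, while with all reads every cell of both kinds had a read. *Ccnd3* was read in 3 of the 18 and reached at most 2.34 RPM, a log2 ratio of -4.30. With a mean of 0.206 RPM in α-cells that size depends on the pseudocount and scale, and ran from -6.22 to -1.55, the last as a difference of mean log2. *Ccnd2* was at 0 in 8 α-cells and reached 377 RPM in GNF4877_84, with a median of 36.8 RPM. Its log2 ratio was -0.77, with -1.08 without that cell, -0.68 without GNF4877_38 and -1.51 as a difference of mean log2.

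*Cdk4* had a median of 243 RPM in α-cells and 248 RPM in Ins1-high cells (-0.26), and *Cdk6* of 2.93 and 2.54 RPM (0.21). *Cdk2* was at 10 RPM or more in 4 of the 18: GNF4877_8 held 40.6 RPM, GNF4877_20 126 RPM, GNF4877_42 269 RPM and GNF4877_58 809 RPM, the last above all Ins1-high cells. Its log2 ratio was -0.83, and passed the threshold without GNF4877_42 (-1.09) or GNF4877_58 (-2.19), with reads summed over cells (-1.07) and as a difference of mean log2 (-1.91). GNF4877_20 also held the most *Ccne1* of the α-cells (20.3 RPM), with 68 RPM of *Ccne2* and 287 RPM of *Ccnb1*. GNF4877_42 also had the highest mesenchymal sum of the α-cells, 11356 RPM, whose part was not tested. *Ccne2* was at 10 RPM or more in 8 of 18 (log2 ratio -0.26), and *Ccne1*, with means of 1.17 and 0.727 RPM, was not tested because these average below 1 RPM.

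*Cdc25a* had a median of 0 and a maximum of 51.5 RPM in the 18 α-cells, with a log2 ratio of -2.04, or -3.20 without GNF4877_34. As a difference of mean log2 it was -0.57 and did not pass. *Rb1* was read in 6 α-cells, and GNF4877_85 held 86.7% of the sum. This gave a log2 ratio of 0.58, but -1.96 without GNF4877_85 and 1.11 without GNF4877_90. With *Ins1* of 100 RPM as the minimum, which moves GNF4877_85 to the Ins1-high cells, it was -2.26. Of the S-phase targets 0 of 18 were higher in α-cells and 11 lower, beside 13.7% and 33.6% of all genes. As differences of mean log2 0 of the targets were higher and 6 lower, beside 3.39% and 20% of all genes. Pocket protein and E2F genes had 1 of 9 higher and 7 lower, but 0 and 0 as differences of mean log2. The CDK inhibitors had 0 of 4 higher and 0 lower, genes acting on CDKs 2 and 2 of 7 (1 and 1 on that scale), cyclin turnover 1 and 3 of 7 (0 and 1), and genes upstream of the D cyclins 2 and 1 of 6 (0 and 0).

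Only 5 α-cells were from DMSO, so the comparison of α-cells between treatments is a description of those cells, and it shares the GNF4877 α-cells with the one above. *Cdk4* and *Cdk2* were higher in GNF4877 α-cells and *Ccnd1* was lower. The values of *Rb1*, *Ccnd3* and *Ccne1* rest on single cells. Of the 9 members tested 3 (*Cdk4*, *Cdk2* and *Rb1*) were higher, beside 34.9% of 11889 genes, and 2 were lower, beside 23.8%, so both counts are near the shares of all genes. The median log2 ratio of all genes was 0.27 for means, -0.40 as a difference of mean log2 and 0.06 outside the hormone genes.

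*Cdk4* was at 0.871 RPM in DMSO_33, 7.04 in DMSO_67, 115 in DMSO_89, 2.96 in DMSO_90 and 59.8 in DMSO_94. In the 18 GNF4877 α-cells it ranged from 0 to 602 RPM with a median of 243, and 14 of them held 100 RPM or more. The groups overlapped, and the log2 ratio was 2.69, or 3.72 without DMSO_89. With *Ins1* of 10000 RPM as the limit, which adds 3 DMSO cells to the α-cells, it was 0.99 and did not pass. *Cdk2* was at 0 in DMSO_33, DMSO_67, DMSO_89 and DMSO_90 and at 1.39 RPM in DMSO_94. In GNF4877 it had a median of 1.41 RPM and a log2 ratio of 5.80, or 4.43 without GNF4877_58. With a mean of 0.278 RPM in DMSO that size depends on the pseudocount and scale, and ran from 2.18 as a difference of mean log2 to 7.54.

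*Ccnd1* was at 103 RPM in DMSO_33, 24.3 in DMSO_67, 109 in DMSO_89, 5.92 in DMSO_90 and 20.8 in DMSO_94, against the median of 7.21 RPM in GNF4877. The log2 ratio of *Ccnd1* was -1.62. *Ccnd2* was at 20.04, 163, 134, 2.96 and 40.3 RPM in the same cells, a log2 ratio of 0.25, with the other sign as a difference of mean log2 (-1.41). *Ccnd3* was at 26.4 RPM in DMSO_94, 2.08 RPM in DMSO_89 and 0 in the others. Its fall, a log2 ratio of -2.47, was -0.33 without DMSO_94, -0.62 with a pseudocount of 10 RPM and -0.77 with an *Ins1* limit of 100 RPM. That limit left only 2 α-cells of DMSO and 16 of GNF4877.

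*Rb1* was read in DMSO_33 alone, at 3.49 RPM. Its log2 ratio was 4.03, with 1.49 without GNF4877_85 and 4.79 without DMSO_33. As a difference of mean log2 it was 0.85, and with an *Ins1* limit of 100 RPM 0.87, neither past the threshold. *Ccne1* was at 0 in all 5 DMSO cells, where the interval for the share of cells with a read goes up to 52.2%, and its means of 1.17 and 0 RPM left it untested. Its log2 ratio of 1.12 was 0.06 without GNF4877_20, and it did not pass with a pseudocount of 10 RPM (0.16), as a difference of mean log2 (0.29) or at 100000 reads (0.64). With an *Ins1* limit of 10000 RPM the ratio of *Ccne1* was -1.03, past the threshold in the other direction. *Ccne2* was at 47.9, 39.9, 0, 17.8 and 8.34 RPM, a log2 ratio of -0.33, or -1.38 and past the threshold as a difference of mean log2. *Cdc25a* was at 0.871, 0.782, 0, 14.8 and 0 RPM, a log2 ratio of 0.23, with 1.84 without DMSO_90, -0.93 without GNF4877_34 and -0.22 as a difference of mean log2. Over settings it ran from -1.03 to 1.76. *Cdc25a* passed as lower with an *Ins1* limit of 10000 RPM. It passed as higher with a limit of 100 RPM, which left 2 DMSO α-cells, or with reads summed over cells. *Cdk6* was at 4.36, 4.69, 12.5, 0 and 6.95 RPM (-0.43).

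Among the lists, the CDK inhibitors had 0 of 6 higher and 3 lower in GNF4877 α-cells (2 as differences of mean log2), with *Cdkn1b* down from 19.8 to 5.52 RPM. The S-phase targets had 9 of 14 higher and 0 lower, beside 34.9% and 23.8% of all genes. The target *Rrm1* went up from 7.88 to 49.6 RPM. As differences of mean log2 2 of the targets were higher and 1 lower, beside 10.8% and 31% of all genes. Upstream of the D cyclins 6 of 7 were higher, with *Ctnnb1* up from 57 to 207 RPM, and 1 was lower. On the other scale 1 of these was higher and 1 lower. Pocket protein and E2F genes had 1 of 6 higher and 2 lower (0 and 2 on that scale), genes acting on CDKs 3 of 5 and 0 (1 and 0), and cyclin turnover 4 of 6 and 0 (0 and 0).

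**Figure D3:**
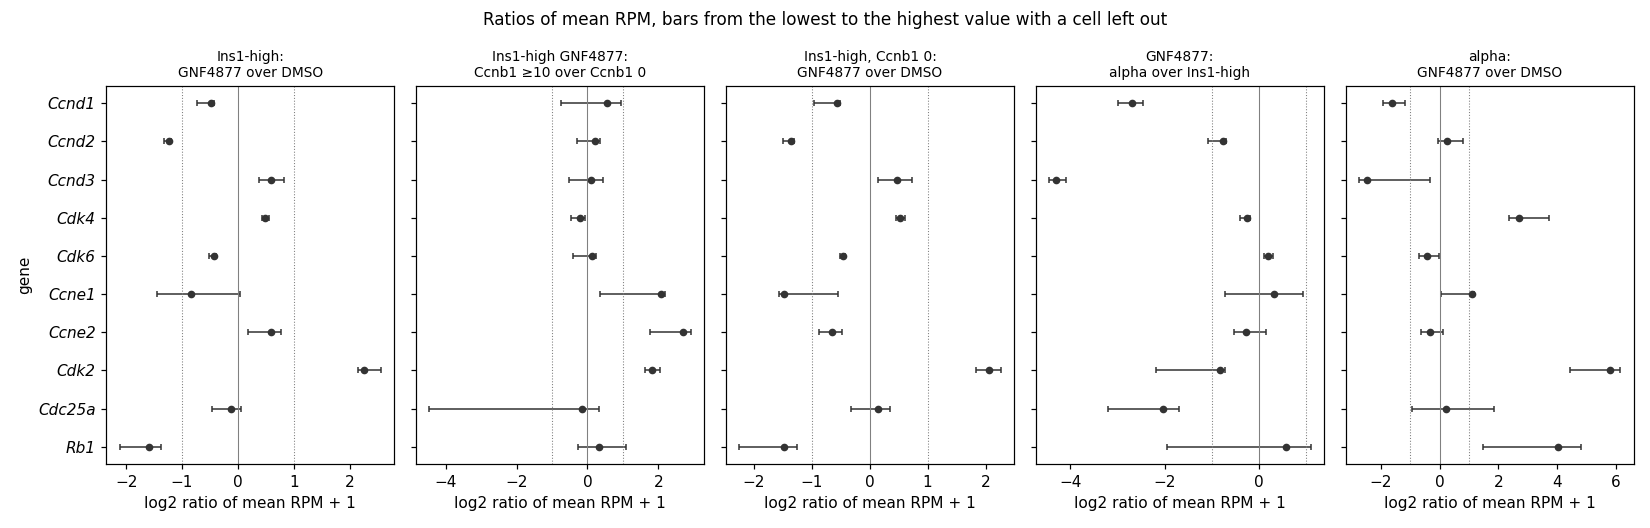
Log2 of the ratio of mean RPM, with 1 RPM added to each mean, for each gene in the 5 comparisons. Bars run from the lowest to the highest value with a single cell left out and are not error bars. Dotted lines mark a 2-fold ratio.

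Some members lie over other genes in the rat annotation, and the library kit keeps no strand. *Tspan31*, which overlaps *Cdk4*, averaged 128 RPM in Ins1-high DMSO and 187 RPM in Ins1-high GNF4877 cells. The log2 ratio of *Tspan31* was 0.55, close to the 0.48 of *Cdk4*. *Pmel*, which overlaps *Cdk2*, averaged only 0.878 and 3.27 RPM, a log2 ratio of 1.18 in the direction of *Cdk2*. *Lpar6*, which overlaps *Rb1*, averaged 22.5 and 39.9 RPM, the opposite direction to *Rb1*. Whether reads of overlapping stretches were given to the wrong gene was not tested.

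The promoters of the members were searched for E2F letters, since RB binds E2F and several G1 genes are known targets of E2F. The RefSeq promoter table of GRCr8, 250 bases before to 50 after a start, has an entry for 6 of the 10 members and none for *Ccnd1*, *Ccnd2*, *Ccne2* and *Cdk6*. The letters TTTGGCGC, TTTCGCGC, TTTCCCGC and TTTGCCGC were searched on both strands. They were found in 2 of the 6, beside 716 of all 33469 promoters (2.14%). The matches lie at chr8:118742802-118742829 on the plus strand for *Cdc25a* and at chr15:54911838-54911865 on the minus strand for *Rb1*, shown with the matched letters in capitals. *Rb1* fell between treatments in Ins1-high cells and *Cdc25a* did not. A match describes the sequence and shows no binding.
Cdc25a: gtgagttccgTTTGGCGCcaactaggga
Rb1: gaagtgacgtTTTCCCGCggttggcccg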

How the data were processed

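Single rat islet cells were profiled with SMARTer and Nextera XT chemistry. The authors used CASAVA 1.8.2, BWA 0.5.9 and SAMtools 0.1.19 and deposited RPM for each transcript; a mouse transcriptome is named in their methods, but rat RefSeq transcripts are listed in the table. Values of 0.01 were set to 0 (69.7% of values) and transcripts of a symbol summed. Reads were recovered from the step between the values of a cell, 100% of values up to 20 reads lying within 0.1 of a whole number. Cells were grouped by *Ins1*, *Gcg* and *Ccnb1* and compared as ratios of mean RPM with a pseudocount of 1 RPM. Thinning to 100000 reads used seed 1. All 10 members are named; lists were counted whole, naming the 3 genes highest over Ins1-high cells, and those past 2-fold in the *Ccnb1* comparison where 5 or fewer were. Members and lists were chosen with earlier results of these data known. The steps were tested on simulated data that lacked the spread between cells seen here, so that test checks the calculation only. Thresholds, pseudocounts, scales, depth and single cells were varied. Protein sequences were not used here. Calculations ran in Python 3.11.15 with pandas 2.3.3, numpy 2.4.6 and scipy 1.17.1, and figures in matplotlib 3.10.9.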

Additional observations from a re-analysis of the deposited data

Results flagged for a closer look

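Among GNF4877 cells that were neither Ins1-high nor α-cells, which belong to no comparison, some held more of a member than any DMSO cell. *Cdk4* was at 2459.6 RPM in GNF4877_5, a cell with only 13.1% of its reads on listed transcripts, and at 2212.42 RPM in GNF4877_62, against at most 1026 RPM in DMSO. *Cdk2* was at 606.62 RPM in GNF4877_62 and 1016.69 RPM in GNF4877_73, against at most 422 RPM in DMSO. Ins1-high and α-cells of GNF4877 reached 809 RPM of *Cdk2*, also above the DMSO maximum and above GNF4877_62, and 870 RPM of *Cdk4*. GNF4877_62 and GNF4877_73 held 59532 and 70421 RPM of *Ppy*, the hormone gene of PP cells. The differences were not tested.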

How the results depend on the processing

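Each treatment was 1 sample, the *Ccnb1* groups hold 11 and 40 cells and DMSO has 5 α-cells, so the ratios describe these cells and carry no error between animals. Low levels limit *Cdk6*, *Ccne1* and the reads of *Ccnd1* and *Cdk2* below 10 RPM, where a share of cells with a read depends on depth and carried-over reads were not tested. Some members passed the minimum mean of 1 RPM only through the group where they were high. These were *Ccne1* in the comparisons of Ins1-high cells, *Ccnd3* in both comparisons of α-cells, and *Cdk2* and *Rb1* between α-cells of the treatments. Their place in the counts carries no weight. Genes of the lists had the same minimum mean, and how many passed it only in that way was not counted. Counts of lists carry that limit too. No paired analysis was possible because the labels name no animal or culture that DMSO and GNF4877 share.

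Of the 750 log2 ratios of members under other settings, 657 stayed within 1.5 times the ratio reported, 92 moved further and 1 reversed, which counts only values past 2-fold that change sign: *Ccne1* between α-cells of the treatments, 1.12, was -1.03 with an *Ins1* threshold of 10000 RPM. Values below 2-fold changed sign in 43 of 466 cases, 15 of them with a cell left out, and are not counted as reversed. Of 99 counts 68 were equal to the count reported and 94 within 1.5 times. Without cells with a second hormone, 5 members rather than 3 passed the fold between treatments in Ins1-high cells. Members with intervals apart numbered 4 rather than 2 in that comparison at 10 RPM or more with all reads, and 1 rather than 0 by *Ccnb1* with an *Ins1* threshold of 100 RPM. Between α-cells and Ins1-high cells they numbered 0 rather than 1 with all reads and 0 at 10 RPM or more. Of 140 shares 94 lay within the exact 95% interval of the share reported. The cause was not tested.

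Over 12 settings *Cdk2* between treatments in Ins1-high cells ran from 1.93 to 2.44, *Ccnd2* from -2.63 to -1.19 and *Rb1* from -2.18 to -1.13, all past 2-fold. By *Ccnb1*, over 14 settings, *Cdk2* ran from 1.20 to 3.20 and *Ccne2* from 1.92 to 2.93. Added after the data were seen were leaving out cells with under 50% of reads on listed transcripts, scaling to reads outside 5 hormone genes, all other settings for counts of intervals apart, and counts of lists and of all genes as differences of mean log2.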

Other observations

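The 25 Ins1-high DMSO cells with a second hormone were set beside the other 53. No share of all genes is given for this split, so the values are descriptions of these cells. *Ccnd2* had a median of 231 RPM (63.2 to 408) with a second hormone and 392 RPM (0 to 1262) without, and *Cdk4* of 97.5 RPM (0 to 442) and 195 RPM (0 to 1026). *Rb1* had a median of 4.71 RPM with a second hormone and 13.8 RPM without, though it was read in 80% and 75.5% of cells. *Ccne2*, by contrast, had a median of 16.4 RPM with a second hormone and 1.40 RPM without, and reached 10 RPM in 15 of 25 and 14 of 53 cells. *Ccnd1* reached 10 RPM in all 25 and in 46 of the 53. The ranges overlap for each gene, and the study kept only ports seen to hold 1 cell under the microscope; whether some of these cells are pairs was not tested in the reads.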
